A study of Mus musculus with 6 samples.

Results

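The neurofilament genes Nefl, Nefm and Nefh, together with Ina and Prph, encode the cytoplasmic intermediate filament proteins that are typical of neurons. They were followed in the hippocampus of mice that overexpress glutamate dehydrogenase 1. Every probeset annotated to one of these 5 genes alone was taken, which gave 11 of the 45101 probesets in the table: 2 for Nefl, 1 for Nefm, 1 for Nefh, 3 for Ina and 4 for Prph. The rule uses gene names and no measured value. The study compared 3 Glud1 transgenic (Tg) male mice with 3 wild type (wt) male mice of the same age, 9 months, and the same C57BL/6 background, with 1 Affymetrix whole-genome mouse array per mouse. No mouse received a treatment. The transgene carries Glud1, the mitochondrial enzyme that interconverts glutamate and 2-oxoglutarate, driven by the neuron-specific enolase (Nse) promoter, which limits the model to overexpression in neurons. The comparison asks how hippocampal cells differ when neurons release moderately more glutamate throughout life.

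Neurofilaments are rope-like polymers that fill the axon and set its calibre. The light chain, encoded by Nefl, is the obligate core subunit, and the medium and heavy chains, encoded by Nefm and Nefh, carry long tails that become heavily phosphorylated and project from the filament. Alpha-internexin, the product of Ina, joins the other subunits in neurons of the adult central nervous system, whereas peripherin, the product of Prph, is best known from peripheral neurons and from central neurons that project outside the brain. Nefl and Nefm lie close to each other on the same chromosome. Neurofilament light chain released into body fluids is widely used as a sign of axonal damage.

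No probeset of the 5 genes passed the test between Tg and wt hippocampus, and limma called 0 of all 31076 probesets kept for testing. Nefl and Nefm overlapped between the genotypes at each of their probesets. Ina stood lower on every Tg than on every wt array at its brightest probeset, as did 6.67% of all kept probesets. The Ina estimate there was -0.22 on the log2 scale (SE 0.0812, adjusted p = 0.403 with limma). Another of its probesets had an estimate of 0.028 with overlapping groups, and the mean over its 3 probesets gave -0.14 (adjusted p = 0.682). Nefh had a log2 fold change of -0.32 (SE 0.149) with overlapping groups. Prph was near the floor of the array at each of its 4 probesets.

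The unit is the deposited MAS5 signal, which is linear. For the tests they were taken as log2(signal + 16), and the 31076 probesets with the highest mean level over all 6 arrays were kept, which corresponds to a signal of 47.8 at the cutoff. Of the 11 probesets, 7 were kept and the 4 for Prph were not. A difference was called at an adjusted p under 0.05, and limma called 0 of the 7, as it called 0 of all kept probesets (0.0%). At an unadjusted p under 0.05, 2 of the 7 were lower and 0 higher in Tg mice, where 3.78% of all kept probesets were lower and 5.91% higher (9.69% in either direction). Both of the lower probesets belong to Ina and were designed from the same source sequence, so they are not separate observations. The remaining Ina probeset, with an estimate of 0.028, was designed from that sequence too. The Tg and wt arrays did not overlap, with lower values in Tg, for 1 of the 7, against 6.67% of all kept probesets, and for 0 of the 7 with higher values, against 8.58%. Of the 7 log2 fold changes, 4 were negative and 3 positive (median -0.12), while 46.8% of all kept probesets had a negative and 53.2% a positive one (median 0.020). With Cyber-T, called at the same adjusted p, 0 of the 7 were called, against 0.209% of all kept probesets. The study also used Cyber-T, but on RMA values and with a Bayesian P threshold of 0.05 beside fold change and FDR limits, so the criteria differ.

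**Figure D1:**
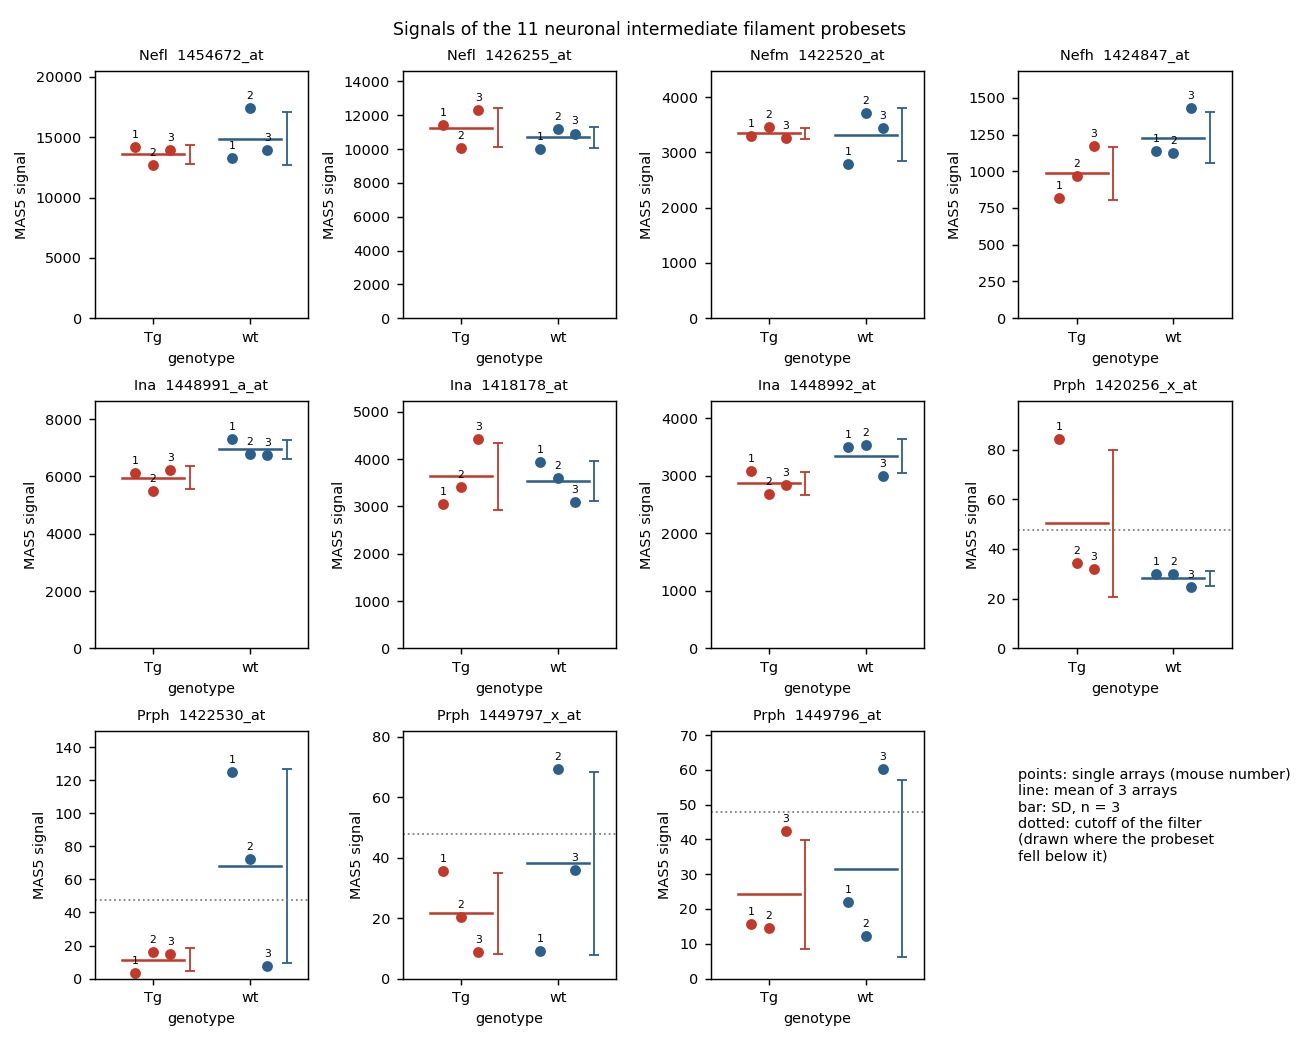
MAS5 signal (y axes, linear, starting at 0) of each of the 11 probesets on the 3 Tg and 3 wt arrays, with points for single arrays, lines for means and bars for the SD. At Ina 1448991_a_at the highest Tg array, 6240.5, lay below the lowest wt array, 6740.0, and at the other kept probesets the groups overlapped. The dotted line marks a signal of 47.8, and the filter itself was applied to the mean log2 level.

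On the array level, 3 facts bear on these values. Glud1 itself, at its brightest probeset, averaged 5424 ± 268 over the Tg arrays and 6009.6 ± 368 over the wt arrays (SD, n = 3), so the gene carried by the transgene read lower on every Tg than on every wt array there, with a log2 fold change of -0.15 (adjusted p = 0.595 with limma). At its other probeset the estimate was -0.087 with overlapping groups. Where the transgene message ends is not given in the sources used here, so these values check no label. The control signal for 18S ribosomal RNA ran from 975.5 to 3313 on the Tg arrays and was 13960 on wt 1, 10375 on wt 2 and 2286.5 on wt 3, which sets wt 1 and wt 2 apart. The ratio of the 3' to the 5' control probesets of Actb, a sign of RNA integrity, ran from 1.64 to 1.69 on the Tg arrays and from 1.70 to 1.95 on the wt arrays. The same ratio for Gapdh overlapped, from 0.781 to 0.800 on the Tg arrays and from 0.752 to 0.908 on the wt arrays. The part of RNA integrity in any result below was not tested. In whole tissue, fewer cells of a type and less RNA per cell cannot be told apart.

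At the brightest probesets, Ina had the smallest unadjusted p of the members (0.0173 against 0.0526 for Nefh), but over the mean of all kept probesets of a gene Nefh had the smaller one (0.0486 against 0.138). The same order, Nefh before Ina, was found without Tg 3, without wt 1 and without both wt 1 and wt 2. The 250 bases before the transcription start of Ina are shown because its brightest probeset is the only kept one with groups that do not overlap. They come from RefSeq on build GRCm38.p6, at chr19:47014431-47014680 on the plus strand, written 5′ to 3′. Of the 5 genes, 2, Ina and Prph, had an entry in the RefSeq table used. Capitals mark the matches to the GC box.
Ina: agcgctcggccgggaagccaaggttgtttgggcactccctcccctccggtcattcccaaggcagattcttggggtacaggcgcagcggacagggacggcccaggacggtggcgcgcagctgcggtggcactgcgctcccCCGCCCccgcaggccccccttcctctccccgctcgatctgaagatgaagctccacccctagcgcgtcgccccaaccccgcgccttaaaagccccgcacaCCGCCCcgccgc
The motifs searched on both strands were the GC box GGGCGG, the TATA box TATAAA and the CCAAT box CCAAT. The GC box was found 2 times, both on the minus strand, in matches that begin 111 and 12 bases before the transcription start and do not overlap. Of all 32851 windows of this length in the table, 32.7% hold a GC box, 12.4% a TATA box and 33.8% a CCAAT box. Neither TATAAA nor CCAAT was in this window. G and C made up 70.8% of it, with 25 CpG pairs, against medians of 52.4% and 6 over all windows. A match is a description of letters, and nothing in the arrays measured binding there.

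At its brightest probeset, 1448991_a_at, the signals for Ina were 6119.8, 5497.7 and 6240.5 on Tg 1, Tg 2 and Tg 3, and 7322.7, 6784.8 and 6740.0 on wt 1, wt 2 and wt 3. Every Tg array was below every wt array, and Tg 3 and wt 3 came closest to each other, by less than the range within the Tg group. The group means were 5953 ± 399 for Tg and 6949 ± 324 for wt (SD, n = 3), so the Tg mean was 85.7% of the wt mean. The log2 fold change was -0.22 with a 95% interval from -0.40 to -0.047 (limma, unadjusted p = 0.0173, adjusted p = 0.403). In the order of unadjusted p values it was at rank 1334 of the 31076 kept probesets.

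A further Ina probeset gave a difference of the same size. At 1448992_at the signals were 3076.4, 2686.4 and 2842.0 on the Tg arrays and 3494.8, 3544.6 and 2998.9 on the wt arrays. The groups overlapped, with wt 3 below Tg 1. The means were 2868 ± 196 and 3346 ± 302, again 85.7%, and the log2 fold change was -0.22 (95% interval from -0.43 to -0.0080, adjusted p = 0.497 with limma). Without both wt 1 and wt 2 it was -0.066, where the one wt array left is taken to vary like the Tg arrays.

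The remaining Ina probeset did not follow. At 1418178_at the signals were 3059.8, 3420.1 and 4435.0 on the Tg arrays and 3934.2, 3605.0 and 3087.9 on the wt arrays. The highest array of all was Tg 3 and the lowest was Tg 1, so the spread within the Tg group covered the whole wt group. The means were 3638 ± 713 and 3542 ± 427, with a log2 fold change of 0.028 (95% interval from -0.26 to 0.32, adjusted p = 0.961 with limma). The estimate rested on single arrays: it was -0.12 without Tg 3, -0.067 without wt 3, 0.14 without Tg 1, 0.11 without wt 1, 0.063 without Tg 2, 0.044 without wt 2 and 0.22 without both wt 1 and wt 2. With each array centred on its median it was -0.039. Over the 6 arrays, the log2 signals of 1448991_a_at correlated at a Pearson r of 0.842 with those of 1448992_at and at 0.197 with those of 1418178_at.

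**Figure D2:**
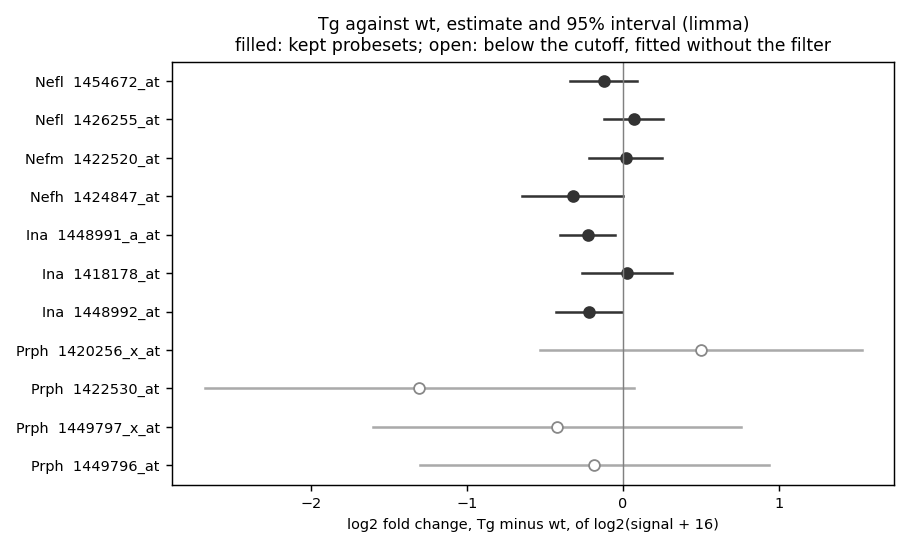
Log2 fold change (x axis, Tg minus wt, of log2(signal + 16)) of the 11 probesets with 95% intervals from limma. Filled points are kept probesets and open points are the Prph probesets below the cutoff, fitted without the filter. The intervals of Ina 1448991_a_at, from -0.40 to -0.047, and Ina 1448992_at, from -0.43 to -0.0080, lie below 0.

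Nefl, the core subunit of the neurofilament, had strong signals on every array. At its brightest probeset, 1454672_at, they were 14150.3, 12689.6 and 13935.0 on the Tg arrays and 13307.7, 17391.7 and 13948.8 on the wt arrays. One array, wt 2, was high, and the other five lay within 12689.6 and 14150.3. The means were 13592 ± 789 and 14883 ± 2200 (SD, n = 3), and the log2 fold change was -0.12 (SE 0.0987, 95% interval from -0.34 to 0.093, adjusted p = 0.724 with limma). Without wt 2 it was -0.0051.

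At the other Nefl probeset, 1426255_at, the sign was positive. The signals were 11397.4, 10070.6 and 12339.2 on the Tg arrays and 10018.1, 11206.8 and 10922.3 on the wt arrays, so the wt arrays lay almost wholly within the range of the Tg arrays. The means were 11269 ± 1140 and 10716 ± 621, with a log2 fold change of 0.069 (95% interval from -0.12 to 0.26, adjusted p = 0.832 with limma). It was 0.0013 without Tg 3, 0.022 without wt 1, 0.15 without Tg 2, 0.040 without both wt 1 and wt 2, and 0.0029 after median centring.

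Nefm, the medium chain, varied more among wt than among Tg mice. Its signals at 1422520_at were 3306.3, 3457.1 and 3268.8 on the Tg arrays and 2790.4, 3720.7 and 3449.9 on the wt arrays. The lowest and the highest array were both wt, and the 3 Tg arrays lay between them. The means were 3344 ± 99.7 and 3320 ± 478, with a log2 fold change of 0.020 (95% interval from -0.21 to 0.25, adjusted p = 0.966 with limma). Its sign was negative when each array was centred on its median (-0.046).

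Nefh, the heavy chain with the longest phosphorylated tail, had the most negative estimate of the kept probesets. Its signals at 1424847_at were 816.0, 967.6 and 1172.3 on the Tg arrays and 1136.9, 1121.5 and 1427.9 on the wt arrays. Tg 3 exceeded wt 1 and wt 2, so the groups overlapped, while Tg 1 was the lowest and wt 3 the highest array. The means were 985 ± 179 and 1229 ± 173 (SD, n = 3), a Tg mean at 80.2% of the wt mean. The log2 fold change was -0.32 with a 95% interval from -0.65 to 0.0042 (limma, unadjusted p = 0.0526, adjusted p = 0.520). It was -0.20 without Tg 1, -0.21 without wt 3 and -0.54 without both wt 1 and wt 2.

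**Figure D3:**
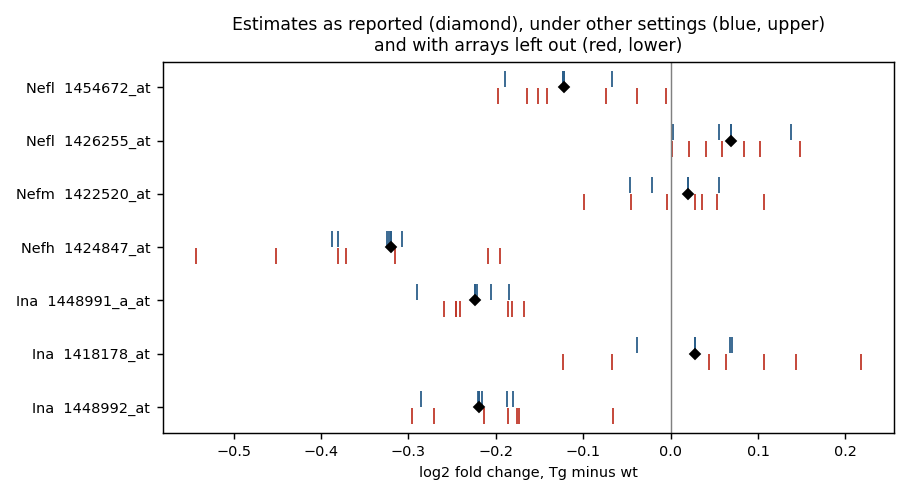
Log2 fold change (x axis, Tg minus wt) of the 7 kept probesets as reported (diamonds), under other settings of the processing (blue marks) and with arrays left out (red marks). Those of Ina 1448991_a_at stay between -0.29 and -0.17, those of Nefh between -0.54 and -0.20, and those of Nefm and Ina 1418178_at lie on both sides of 0.

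Prph lay in the dim range where MAS5 signals hold little information. Its 4 probesets had signals from 24.8 to 84.4 (1420256_x_at), from 3.3 to 124.8 (1422530_at), from 8.7 to 69.4 (1449797_x_at) and from 12.3 to 60.3 (1449796_at), and all fell below the cutoff by their mean level. At 1422530_at, the Tg arrays read 3.3, 16.2 and 15.0 and the wt arrays 124.8, 72.3 and 7.3, so that the raised values came from wt 1 and wt 2 alone, the pair with the high 18S signal. Without the filter the log2 fold change there was -1.30 (95% interval from -2.68 to 0.070, adjusted p = 0.624 with limma). At 1420256_x_at every Tg array exceeded every wt array, with 84.4, 34.5 and 31.9 against 30.0, 29.8 and 24.8, with Tg 3 and wt 1 close together. At the remaining probesets the groups overlapped. Genes that mark peripheral neurons were also dim: of 6 listed, 4 had a probeset (Isl1, Scn10a, Avil and Trpv1), and none of these was kept, with a highest array of 63.3 over all of them.

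Because the subunits assemble into one filament, the difference between 2 genes in log2 signal within each array was compared between the genotypes, which does not depend on how an array was scaled. It cannot tell which gene of a pair differs. There were 6 pairs of the 4 genes with a kept probeset, and 3 arrays against 3 cannot give an exact two-sided permutation p under 0.1. The largest shift with all 6 arrays was in Nefm relative to Nefh, at 2.00, 1.82 and 1.47 on the Tg arrays and 1.28, 1.72 and 1.26 on the wt arrays. Tg 1 and Tg 2 lay above all wt arrays and Tg 3 lay within them. The difference of the means was 0.34 (exact permutation test, two-sided, p = 0.2, adjusted over the 6 pairs p = 0.6). It was 0.22 without Tg 1 and 0.26 without wt 3, where the shift of Nefm relative to Ina was larger (0.27 and 0.30), and 0.50 without both wt 1 and wt 2, where that of Nefl relative to Nefh was as large (0.50). Nefm relative to Ina shifted by 0.24 (exact p = 0.3) and Nefl relative to Nefh by 0.20 (exact p = 0.4). The first was 0.086 without wt 1 and 0.14 without both wt 1 and wt 2, and the second was 0.042 without Tg 1, 0.045 without wt 3, 0.31 without Tg 3 and 0.38 without wt 2. Nefl relative to Nefm shifted by -0.14 (exact p = 0.3), Nefl relative to Ina by 0.10 (exact p = 0.6) and Nefh relative to Ina by -0.097 (exact p = 0.7). The groups overlapped in every pair.

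Over the 6 arrays the 4 genes did not share one pattern. With the group means removed, the brightest probesets of Nefl and Nefm correlated at 0.665, Nefl and Ina at 0.0049, Nefm and Nefh at 0.092, Nefh and Ina at -0.057, Nefl and Nefh at -0.25 and Nefm and Ina at -0.68. These are descriptions over 6 arrays that share scaling and dissection, with no test. The mean of the centred log2 signals of the 4 genes was -0.12, -0.12 and 0.0036 on the Tg arrays and -0.023, 0.14 and 0.12 on the wt arrays. Among 13850 other genes, the 5 that followed this mean most closely were Mcl1, a survival protein of the BCL2 family (r = 0.997), Lrrc4c, a synaptic adhesion protein (0.995), Sptssb, a small subunit of serine palmitoyltransferase (0.991), C87436 (0.989) and Nupr1, a stress-induced nuclear protein (0.989). They were picked as the highest of all genes searched, over only 6 arrays.

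Markers of the cell types that the dissected tissue could hold were read on the same arrays. None was called, and the shares over all 13854 genes at their brightest probeset to set beside them are 56.0% negative and 44.0% positive, with 4.95% lower and 2.86% higher at an unadjusted p under 0.05. The groups did not overlap for 8.8% of all these genes with lower values in Tg, and for 5.19% with higher values. Markers of the subiculum and other cortex next to the hippocampus had a negative log2 fold change in 6 of 6 measured genes (median -0.82). Their summed signal ran from 4898 to 5677 on the Tg arrays and from 7344 to 8199 on the wt arrays. Nr4a2, a nuclear receptor and the brightest of them, averaged 2221 ± 74.9 for Tg and 2380 ± 277 for wt, with overlapping groups. Without overlap, 4 were lower in Tg: Tshz2, Nts, Satb1 and Slc17a6. Markers of GABAergic interneurons were negative in 9 of 9 (median -0.35), with 5 at an unadjusted p under 0.05 and a summed signal from 19769 to 23375 on the Tg and from 24142 to 29450 on the wt arrays. Gad1, a GABA-synthesizing enzyme and the brightest of them, averaged 9191 ± 637 for Tg and 10193 ± 1920 for wt, and Sst, the peptide somatostatin, averaged 3701 ± 508 on the Tg arrays against 5127 ± 292 on the wt arrays (adjusted p = 0.212 with limma). Markers of neocortical layers were negative in 6 of 7 (median -0.31), and 1 of them was lower without overlap. The exception, Rorb, was higher on every Tg than on every wt array (log2 fold change 0.42, adjusted p = 0.447 with limma). Several of these markers are genes that the study itself listed on these samples, and for these the direction is no independent observation. They are Tshz2, Nts, Satb1 and Slc17a6 of the subiculum list and Reln and Vip of the GABAergic list. Those of the neocortical list are Cux2, Foxp2, Cplx3 and Ccn2. In the lists described next they are Prox1, Calb1, C1ql3, Dsp and Lct (dentate gyrus) and Rgs14 (CA2 and CA3). Elavl3 of the list shared by all neurons, Mbp of the oligodendrocyte list and Gja1 of the astrocyte list were listed too. The study had Gja1 as up-regulated from RMA values, possibly at another probeset, while its log2 fold change here, at its brightest probeset, was -0.15.

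Markers of granule cells of the dentate gyrus were positive in 8 of 8 (median 0.44). Of these, 5 were higher in Tg without overlap, and 4 at an unadjusted p under 0.05 with limma. Their summed signal ran from 15028 to 16204 on the Tg arrays. It was 11644 on wt 1, 11923 on wt 2 and 15016 on wt 3, so the clearly lower sums came from wt 1 and wt 2. The part of these arrays in the dentate gyrus shift was not tested. Markers of CA2 and CA3 pyramidal cells were positive in 5 of 7 (median 0.25), and those of CA1 in 4 of 6 (median 0.13). Of the markers shared by all neurons, 3 of 7 were positive (median -0.036), with a summed signal from 86016 to 91406 on the Tg and from 86612 to 90655 on the wt arrays. Snap25, a release protein and the brightest of them, averaged 32152 ± 1660 for Tg and 31411 ± 1210 for wt. Tubb3, a neuronal tubulin, was lower without overlap (1529 ± 249 against 1880 ± 65.2, adjusted p = 0.456 with limma), and Rbfox3, a nuclear splicing factor of neurons, was higher without overlap (10157 ± 944 against 9248 ± 190, adjusted p = 0.634). The remaining lists were positive in 5 of 5 for the thalamus (median 0.10), 2 of 6 for oligodendrocytes (median -0.10), 1 of 5 for astrocytes (median -0.14) and 0 of 6 for the choroid plexus (median -0.81). The choroid plexus list had a summed signal of 4444 on Tg 3 and between 41962 and 65959 on the other arrays, most of it from Ttr. The mean of its centred log2 signals was -0.36 on Tg 1, 1.63 on Tg 2 and -2.43 on Tg 3. On wt 1, wt 2 and wt 3 it was 0.44, 0.42 and 0.30, so the Tg arrays lay on both sides of the wt arrays. Some markers were dim on single arrays, such as Aqp1 at 8.6 on Tg 3 and Foxp2 at 28.5 on Tg 1, below the cutoff signal of 47.8. Whether any of these shifts has a part in the lower Ina and Nefh signals was not tested.

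**Figure D4:**
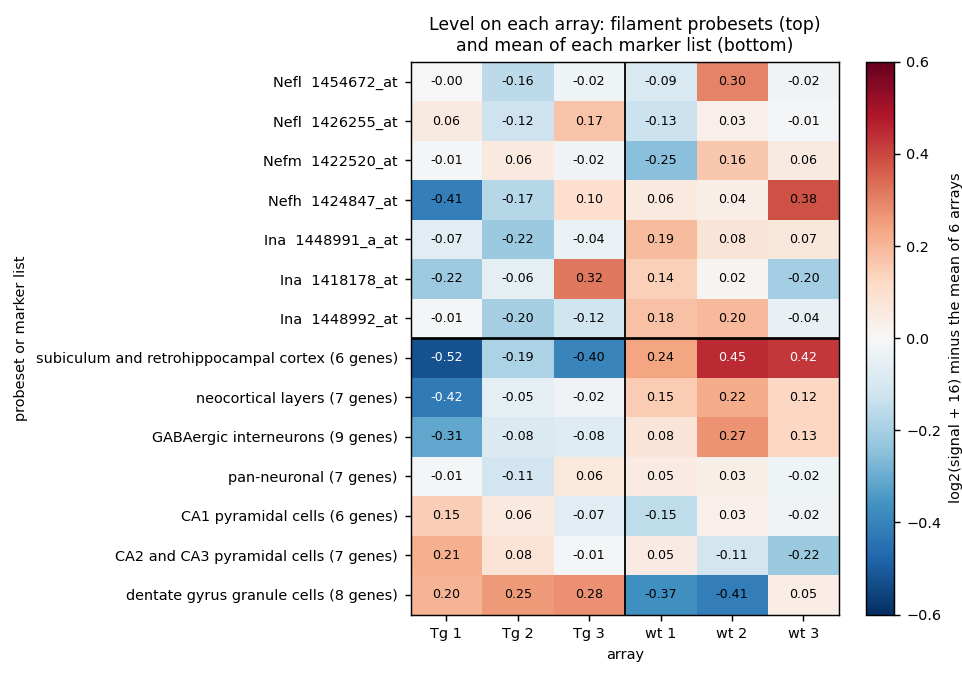
Level on each of the 6 arrays (columns) relative to the mean of all 6, on the log2(signal + 16) scale, for the 7 kept filament probesets (upper rows) and the mean of each marker list (lower rows). Markers of the subiculum and retrohippocampal cortex lie between -0.52 and -0.19 on the Tg arrays and between 0.24 and 0.45 on the wt arrays, while no filament probeset falls outside -0.41 to 0.38.

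Genes that build, modify, carry and clear neurofilaments also gave no call. Of 47 genes in 6 lists, 41 had a kept probeset. limma called 0 of them, 1 was higher and 4 were lower at an unadjusted p under 0.05, and 26 of the 41 log2 fold changes were negative (median -0.065). Over all genes at their brightest probeset, 0.0% were called, 2.86% were higher and 4.95% lower at that p (7.81% in either direction), 56.0% were negative and 44.0% positive (median -0.031). The groups did not overlap, lower in Tg, for 3 kinases or phosphatases, 2 motors and 2 genes of folding and turnover, and higher in Tg for 1 messenger RNA-binding protein, against 8.8% lower and 5.19% higher over all genes. Cyber-T and every other setting tried also called 0 of the 41.

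Intermediate filaments of other cells and the nuclear lamins were divided, with 4 of 8 negative (median -0.065). Gfap, the filament of astrocytes, read 3977.6, 4760.9 and 4207.9 on the Tg arrays and 4441.8, 6620.5 and 5075.5 on the wt arrays. The groups overlapped through Tg 2, and the log2 fold change was -0.30 (SE 0.130, adjusted p = 0.488 with limma). Vim, the filament of glial and vascular cells, averaged 1544 ± 126 for Tg and 1821 ± 566 for wt. Nes, the filament of neural progenitors, had 147 ± 32.6 and 93.7 ± 33.0, a log2 fold change of 0.60 (adjusted p = 0.597).

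Among the kinases and phosphatases that act on neurofilament tails, 6 of 10 were negative (median -0.042). Cdk5r1 encodes p35, the activator of CDK5, a kinase of the tails of the medium and heavy chains. It read 2983.7, 2724.8 and 2541.0 on the Tg arrays and 3961.0, 3783.5 and 3070.0 on the wt arrays. All Tg arrays were below all wt arrays, and the log2 fold change was -0.38 (SE 0.110, unadjusted p = 0.0045, adjusted p = 0.277 with limma). Cdk5 itself had 2514 ± 131 and 2546 ± 84.2, and it is named here after its values were seen. Mapk10, a stress kinase of neurons, averaged 12902 ± 1330 on the Tg arrays against 11246 ± 643 on the wt arrays, with an estimate of 0.19 (adjusted p = 0.509). The phosphatase genes Ppp2r1a and Ppp2ca, with the highest signals of this list, had log2 fold changes of -0.065 and 0.017.

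Of the motors that carry filaments along axons, 8 of 9 were negative (median -0.064). Kif5a, a kinesin heavy chain that moves neurofilaments, read 21899.3, 23129.2 and 21251.7 on the Tg arrays and 24662.8, 26666.7 and 25252.5 on the wt arrays. Its groups did not overlap, and the log2 fold change was -0.21 (SE 0.0684, unadjusted p = 0.0102, adjusted p = 0.346 with limma). The sister gene Kif5c, which the study listed as up-regulated on these samples from RMA values, had 13158 ± 534 and 13791 ± 1280. Its log2 fold change here, at its brightest probeset, was -0.064, with overlapping groups, and the study may have listed another probeset. Dctn1, the largest subunit of dynactin, had 6415 ± 78.0 and 6822 ± 237, also with no overlap.

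The proteins of folding and turnover were negative in 6 of 7 (median -0.17). Capn1, a calcium-activated protease that cleaves neurofilaments, was dim, with 207.9, 205.4 and 177.9 on the Tg arrays and 299.3, 311.4 and 239.6 on the wt arrays. The groups did not overlap, and the log2 fold change was -0.49 (SE 0.206, adjusted p = 0.479 with limma). Cryab, a small heat shock protein, had 3410 ± 645 and 4048 ± 511. Trim2, a ubiquitin ligase that binds the light chain, had 9296 ± 539 and 9919 ± 361, and the ubiquitin ligase Stub1 had 3870 ± 33.8 and 4108 ± 44.9.

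Crosslinkers and neighbouring cytoskeletal proteins had 2 of 5 negative (median 0.0062). Map2 of dendrites averaged 12204 ± 1330 for Tg and 12105 ± 92.5 for wt, Mapt, the axonal protein tau, 6798 ± 528 and 7488 ± 292, and Dst, which links filaments to actin and microtubules, 1681 ± 464 and 2027 ± 648. The study, working from RMA values, listed both Map2 and Dst as up-regulated on these samples. Here the log2 fold change was 0.0062 for Map2 and -0.26 for Dst, and the reason for the difference was not tested. Of the messenger RNA-binding proteins, Tardbp, which binds the Nefl message, had 1891 ± 102 and 1692 ± 132, and Elavl2, 4176 ± 579 and 4120 ± 380. Their log2 fold changes were 0.16 and 0.015. None of these genes passed the test.

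**Figure D5:**
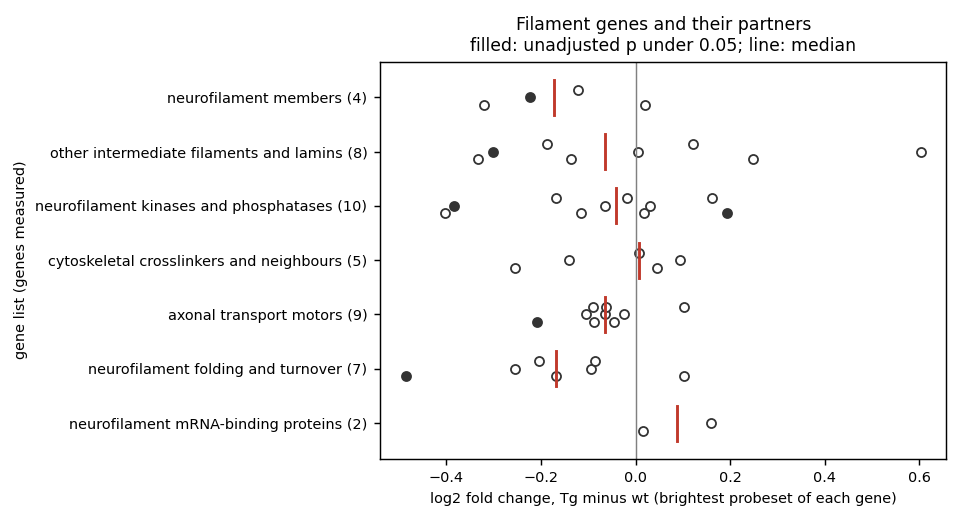
Log2 fold change (x axis, Tg minus wt) of each measured gene at its brightest probeset, by list, with a red line at the median. Filled points have an unadjusted p under 0.05, and none passed after adjustment. The medians lie between -0.17 for the filament genes and for folding and turnover, and 0.087 for the messenger RNA-binding proteins.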

How the data were processed

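Hippocampal total RNA of 3 Tg and 3 wt mice was labelled by the one-cycle protocol, and arrays were run under GCOS by the authors. The deposited intensities are MAS5 signals, 1 per probeset and array, which the authors scaled on each array to a common level, since the trimmed mean of every array is 500.0. The study drew its gene lists from RMA values by SAM and Cyber-T, so limma on MAS5 signals is a different route. Detection calls were not analysed here.

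Control probesets (64) were set aside, the 69% of the other 45037 with the highest mean log2(signal + 16) were kept, and groups were fitted with limma 3.58.1 in R 4.3.3 with an intensity trend and Benjamini-Hochberg adjustment over all 31076 kept probesets. Fits were run on simulated data with independent noise, to check only that the mean estimates lay near the planted differences. How many planted differences were called is not given here, so this says nothing of the power with these arrays. A gene stands at its brightest probeset annotated to it alone. Permutation tests used scipy 1.17.1, and figures matplotlib 3.10.9. The number of arrays limits the precision.

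The members, lists and tests were chosen with earlier results of these data known. The text names all member probesets, in each partner list the 2 brightest genes and the 2 with the smallest p, and the 5 genes of most similar pattern. Of the cell type markers, the brightest of the main lists are named, and the other named ones were chosen after their values were seen or for standing in the study's lists. Alternatives were other added constants, quantile normalization, median centring, other filters, limma without trend or with array weights, Cyber-T (window 101, confidence 10), a replicate block, the mean of a gene's probesets and leaving out arrays. The labels number the mice and state no pairing. The paper calls the wt mice littermates, and the labels do not give which mice shared a litter. Deviations from the group means correlated at -0.0159, 0.00779 and 0.0333 between same-numbered arrays, which cannot settle whether mice were paired.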

Additional observations from a re-analysis of the deposited data

How the results depend on the processing

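Under every alternative tried, 0 member probesets and 0 partner genes were called, by limma and by Cyber-T. The estimates for Ina (from -0.29 to -0.14), Nefh (from -0.54 to -0.20) and Nefl (from -0.20 to -0.0051) stayed negative, at the brightest probeset or over the mean of a gene's probesets, with adjusted p from 0.279 to 0.943, 0.366 to 0.777 and 0.491 to 0.996. That for Nefm was negative when each array was centred on its median (-0.046), with array weights (-0.021) and without both wt 1 and wt 2 (-0.045). With 1 array left out it ran from -0.099 to 0.11. The within-array differences with 1 array left out ran from -0.19 to 0.050 for Nefh relative to Ina, from -0.012 to 0.24 for Nefl relative to Ina, from 0.042 to 0.38 for Nefl relative to Nefh, from 0.086 to 0.35 for Nefm relative to Ina and from 0.22 to 0.49 for Nefm relative to Nefh. Nefl relative to Nefm was 0.0061 without both wt 1 and wt 2. The cause of these turns was not tested. The replicate number as a block, though no label says that the numbers pair the arrays, left the estimates as they were (-0.22 for Ina, adjusted p = 0.421, and -0.32 for Nefh, adjusted p = 0.421). Centring moved every log2 fold change down by about the same amount, since the Tg arrays had the higher median signal (315 against 300.2). Signals near the floor limit what can be said of Prph.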
